A study of Danio rerio with 24 samples.

Results

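Synapse and neurotransmission genes were examined in the eyes of zebrafish (AB line) exposed to mebendazole (MBZ), an anthelmintic benzimidazole that binds tubulin, or to BBC, a benzimidazole that served as the control compound. The list held 56 genes of the presynaptic vesicle, the active zone and ribbon, transmitter synthesis and transport, transmitter receptors, and synaptic adhesion. Members were found by the RefSeq accession that the array gives for each probe, which matched 34 of the 56 genes (55 probes) among 10536 gene names on the array. Fish were exposed from 48 h post-fertilization (hpf) to MBZ at 0.3 μM until 60, 72 or 84 hpf (exposures of 12, 24 and 36 h), or to BBC at the same concentration and times, and RNA from the pooled eyes of 50 zebrafish per sample was measured on 1-colour Agilent arrays, with 4 arrays in each of the 6 groups. There was no group without a benzimidazole, so the values in BBC eyes describe eyes that carried the control compound. Nothing in the labels says whether the 4 samples of a group came from separate clutches, so p-values measure the spread between these samples.

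A chemical synapse releases transmitter when vesicles fuse with the presynaptic membrane through SNARE proteins, under the control of synaptotagmins, complexins and Munc18 proteins, and receptors on the opposite membrane, held by scaffold proteins, respond. In the retina, photoreceptors and bipolar cells signal continuously through ribbon synapses, which carry a plate of the protein ribeye and a complexin set of their own. Photoreceptors and bipolar and ganglion cells use glutamate, while most amacrine cells release GABA or glycine. Photoreceptors contact bipolar and horizontal cells in the outer plexiform layer, and bipolar, amacrine and ganglion cells meet in the inner plexiform layer.

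Of the 34 genes, 32 were tested, and 31 of these were well above background on all 24 arrays. The exception, gria4a, an AMPA receptor subunit, was above background on 17 of 24 arrays. The remaining genes on the array, syt1b and gria3b, were above background on 0 and 4 of 24 arrays and were not tested. No probe was matched for 21 genes (syt1a, stx3a, sypa, sypb, syn2b, sv2a, cplx3b, cplx4c, rims2a, cacna1fa, chata, th, slc17a7a, slc1a2a, glrba, gria1a, grin1b, prkca, nrxn3a, nlgn2a and nlgn3a). The last gene, ctbp2l, was named only through the study's list of probes changed by MBZ, and is therefore described apart from the 32. Levels are given on a log2 scale on which 0 is the 75th percentile of the signals of an array. Where a gene had more than 1 probe, the brightest stands for it, and levels are compared only within a probe.

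The 75th percentile of the signal lay between 437 and 1433 on the 24 arrays and was lowest on the 72 hpf arrays, and 66.5 to 76.7% of probes were well above background. The 3 ages were scanned on 3 different days, and age and scan day cannot be told apart. Every slide held 4 arrays of 1 exposure time, with MBZ and BBC each on fixed positions, so compound and position on the slide cannot be told apart. In these pooled eyes, fewer cells of a type and less RNA per cell cannot be told apart either. Retinal markers were present. The 17 photoreceptor markers on the array all rose from the earliest to the latest age in BBC eyes (median log2 difference 4.45), with a summed level of 233.8 to 354.7 at 84 hpf, against 34.2 to 59.7 at 60 hpf. Markers of proliferating retinal progenitors went the other way, with 17 of 19 lower at 84 hpf. Over all tested probes, 34.5% rose and 32.2% fell between these ages. Skeletal muscle markers, which are not of the retina, rose as well, in 15 of 16 tested genes, with a summed level of 205.8 to 245.3 at 84 hpf, against 38.9 to 66.9 at 60 hpf, and none of the 17 muscle genes was below background on all arrays. The summed level of 25 brain and pituitary markers was 20.2 to 23.5 at 84 hpf, against 25.6 to 30.2 at 60 hpf. The part of these tissues in the values of the synapse genes was not tested.

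The comparison of ages in BBC eyes showed how the genes came up during the days on which retinal synapses form. From 60 to 84 hpf, by their brightest probes, 20 of the 32 genes rose and 1 fell by limma at an adjusted p under 0.05. The 20 include gad1b, whose probes differed in sign. Over all 31507 tested probes, 34.5% rose and 32.2% fell. The median log2 difference was 0.75 over the 32 genes and 0.03 over all probes. With a normexp background correction 11 genes rose and 0 fell, and these medians were 0.74 and 0.004. By the brightest probes, the rises were led by cplx4a, a complexin of ribbon synapses, at 34.0-fold. This is a log2 difference of 5.09 with the main scaling, against 3.88 ± 0.50 with normexp (SE). cplx4a was followed by grm6b, the glutamate receptor of ON bipolar cells, at 6.80-fold and grin1a, the obligatory subunit of NMDA receptors, at 6.08-fold. The dimmer probe of grm6b rose less, as given below. The SNARE proteins vamp1a and snap25b rose 5.25-fold and 3.89-fold. The fall was that of slc1a3a, a glutamate transporter found on Müller glia, and its call was lost with other scalings. The plot of changes by gene gives all 32 by role.

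**Figure D1:**
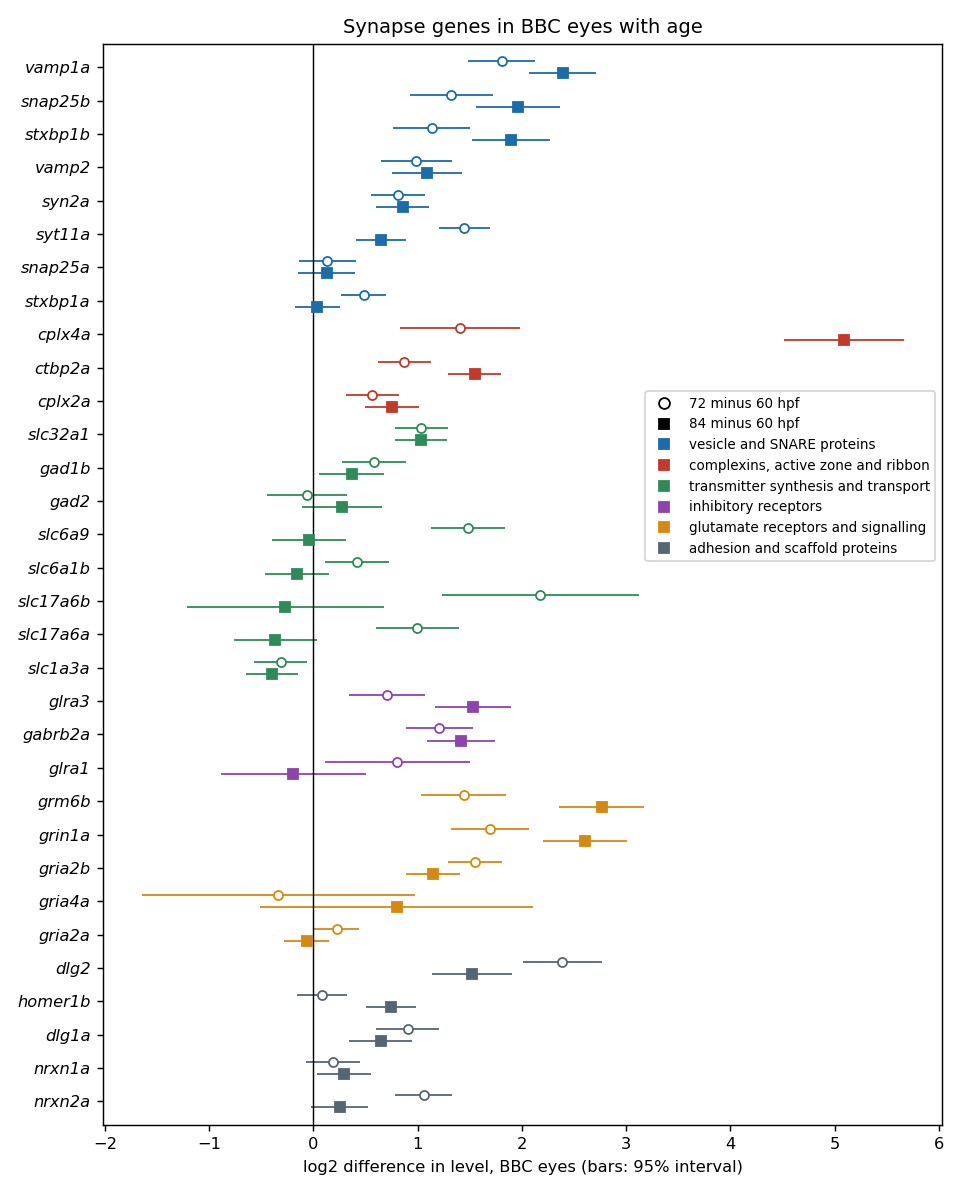
Log2 difference in level in BBC eyes for the 32 tested genes (rows, coloured by role), 72 minus 60 hpf (open circles) and 84 minus 60 hpf (filled squares), with 95% intervals from 4 arrays per age (3 for grin1a at 84 hpf). From 60 to 84 hpf, cplx4a lies farthest to the right at 5.09.

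Among the vesicle and SNARE genes, 6 of 8 rose from 60 to 84 hpf, beside 34.5% of all probes, with a median log2 difference of 0.97. vamp1a, a synaptobrevin of the vesicle membrane (probe A_15_P193746), had levels of −0.17, −0.02, 0.07 and −0.07 in BBC eyes at 60 hpf, of 1.59, 1.92, 2.15 and 1.38 at 72 hpf, and of 2.39, 2.23, 2.56 and 2.2 at 84 hpf. The samples at 84 hpf were all above the highest at 60 hpf, and the log2 difference was 2.39 ± 0.15 (SE, n = 4 each, limma adjusted p = 1.05e-10). In MBZ eyes the levels of vamp1a were 0.01, −0.21, 0.12 and −0.03 at 60 hpf, 1.83, 2.16, 2.07 and 2.0 at 72 hpf, and 1.76, 2.14, 2.4 and 2.48 at 84 hpf, so that the same groups did not overlap there.

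The paralog pairs differed in their course. snap25b, the partner of synaptobrevin on the presynaptic membrane, averaged 4.95 ± 0.20 at 84 hpf, against 2.99 ± 0.28 at 60 hpf (SD, n = 4 each), while snap25a averaged 3.39 ± 0.14 at 84 hpf and 3.26 ± 0.12 at 60 hpf. stxbp1b, a Munc18 protein that binds syntaxin, rose by a log2 difference of 1.89 ± 0.18, whereas its paralog stxbp1a differed by 0.04 ± 0.10 (SE). With the main scaling, snap25a and stxbp1a were thus the members of this role that did not pass the test, and the differences between paralogs were not themselves tested. vamp2, another synaptobrevin, rose by 1.09 ± 0.16, syn2a, a synapsin that tethers vesicles, by 0.86 ± 0.12, and syt11a, a synaptotagmin without calcium binding in mammals, by 0.65 ± 0.12. The calls of vamp2, syn2a and syt11a were lost with a normexp background correction (limma adjusted p = 0.0878, 0.0976 and 0.23). With quantile normalization snap25a rose by 0.33 ± 0.14 and passed (SE, limma adjusted p = 0.0406). stxbp1a differed by 0.27 ± 0.12 with that scaling and did not pass (adjusted p = 0.0539).

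All 3 tested genes of complexins and the ribbon rose from 60 to 84 hpf, beside 34.5% of all probes. cplx4a (probe A_15_P147962) had levels of −4.76, −5.11, −4.84 and −4.64 in BBC eyes at 60 hpf, of −3.36, −3.14, −2.92 and −4.30 at 72 hpf, and of 0.35, 0.17, 0.80 and −0.31 at 84 hpf. The ages did not overlap, and replicate 4 was the lowest of the samples at both 72 and 84 hpf. In MBZ eyes the levels of cplx4a were −4.67, −5.23, −4.49 and −4.45 at 60 hpf, −3.16, −3.53, −3.31 and −3.37 at 72 hpf, and −0.54, 0.06, 0.63 and 0.37 at 84 hpf. The log2 difference between 84 and 60 hpf was 4.84 ± 0.28 in MBZ eyes and 5.09 ± 0.28 in BBC eyes (SE). The dimmer probe of cplx4a (A_15_P505362) averaged −6.06 ± 0.58, −3.03 ± 0.46 and −1.40 ± 0.53 at 60, 72 and 84 hpf in BBC eyes (SD). It was above background on 3 of 4 of these arrays at 60 hpf. Its first step was the larger, whereas the second was the larger for the brightest probe, so the timing of the rise is not settled. ctbp2a, whose locus encodes ribeye as well as the corepressor CtBP2, rose by 1.55 ± 0.12 in BBC eyes, and cplx2a, a complexin of conventional synapses in mammals, by 0.75 ± 0.12. The related probe of ctbp2l (A_15_P139641) averaged −4.16 ± 0.49 at 84 hpf, against −5.60 ± 0.24 at 60 hpf (SD, n = 4 each). The call of cplx2a was lost with a normexp background correction (limma adjusted p = 0.0966).

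Of the 8 genes of transmitter synthesis and transport, by their brightest probes, 2 were higher and 1 was lower at 84 than at 60 hpf, beside 34.5% of all probes higher and 32.2% lower. slc32a1, the vesicular transporter for GABA and glycine (probe A_15_P161231), had levels of 2.79, 2.90, 2.79 and 3.11 in BBC eyes at 60 hpf, of 3.87, 3.93, 4.07 and 3.87 at 72 hpf, and of 3.90, 3.86, 4.21 and 3.75 at 84 hpf. It rose between 60 and 72 hpf, with a log2 difference of 1.04 ± 0.12 (SE), and did not pass the test between 72 and 84 hpf, but the step depended on the scaling. With a normexp background correction the log2 difference of slc32a1 was 0.14 ± 0.39 from 60 to 72 hpf (limma adjusted p = 0.763). It was 0.87 ± 0.39 from 72 to 84 hpf (adjusted p = 0.0579). From 60 to 84 hpf it was 1.01 ± 0.39, and the call was lost (adjusted p = 0.0875). In MBZ eyes the levels of slc32a1 were 3.03, 2.55, 3.18 and 2.99 at 60 hpf, 3.96, 3.86, 4.12 and 3.96 at 72 hpf, and 4.1, 3.87, 4.19 and 4.08 at 84 hpf. slc1a3a (probe A_15_P119815) had levels of 3.35, 3.39, 3.11 and 3.19 in BBC eyes at 60 hpf, of 2.92, 2.76, 3.08 and 3.04 at 72 hpf, and of 2.77, 2.93, 2.89 and 2.88 at 84 hpf. Every sample at 84 hpf was below every sample at 60 hpf, and the gene fell by 0.40 ± 0.12 on the log2 scale (SE, adjusted p = 0.00704). This call was lost with quantile normalization (log2 difference −0.21, adjusted p = 0.102), where slc17a6a was the gene called lower (−0.42, adjusted p = 0.0465), and with normexp (slc1a3a −0.32, adjusted p = 0.78). In MBZ eyes slc1a3a had levels of 2.96, 3.34, 2.99 and 2.58 at 60 hpf, of 2.72, 2.83, 2.76 and 2.85 at 72 hpf, and of 3.27, 2.91, 2.97 and 2.85 at 84 hpf, and these groups overlapped. Its log2 difference between 84 and 60 hpf in MBZ eyes was 0.03 ± 0.12, and the MBZ effect at 36 h minus that at 12 h was 0.43 ± 0.17 (SE, adjusted p = 0.49).

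The vesicular glutamate transporters slc17a6a and slc17a6b and the glycine transporter slc6a9 were highest at 72 hpf. slc17a6a averaged −1.92 ± 0.20, −0.93 ± 0.30 and −2.29 ± 0.15 at 60, 72 and 84 hpf in BBC eyes (SD, n = 4 each). slc6a9 averaged −4.33 ± 0.14, −2.85 ± 0.29 and −4.37 ± 0.29, and slc17a6b averaged −5.01 ± 0.26, −2.83 ± 0.29 and −5.27 ± 0.33. The GABA transporter slc6a1b showed a smaller difference of this kind, with 4.32 ± 0.12, 4.74 ± 0.21 and 4.17 ± 0.13, but only with the main scaling. With normexp the log2 difference of slc6a1b was −0.44 ± 0.37 from 60 to 72 hpf and 0.39 ± 0.37 from 72 to 84 hpf (SE). Neither passed the test. The brightest probe of the GABA-synthesizing enzyme gad1b (A_15_P102378) differed by 0.37 ± 0.15 between 84 and 60 hpf (adjusted p = 0.0356), but its other probes gave 0.43, 0.07 and −0.59, so no direction of the gene is given. gad2 differed by 0.27 ± 0.18 and did not pass the test (adjusted p = 0.198).

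Of the 3 inhibitory receptor genes, 2 rose from 60 to 84 hpf, beside 34.5% of all probes, and so few genes do not describe the role. glra3, a glycine receptor subunit (probe A_15_P119105), had levels of −4.45, −4.30, −4.03 and −3.75 in BBC eyes at 60 hpf, of −3.45, −3.30, −3.18 and −3.76 at 72 hpf, and of −2.54, −2.71, −2.17 and −2.99 at 84 hpf. The samples at 84 hpf lay above all others of BBC eyes, and the log2 difference from 60 hpf was 1.53 ± 0.17 (SE, adjusted p = 1.96e-07). With a normexp background correction the difference of glra3 was 0.96 ± 0.49, and its call was lost (limma adjusted p = 0.234). In MBZ eyes its levels were −3.97, −4.17, −3.92 and −4.15 at 60 hpf, −3.11, −3.24, −3.16 and −3.33 at 72 hpf, and −2.83, −2.72, −2.23 and −2.32 at 84 hpf. gabrb2a, a GABA-A receptor subunit, rose by 1.42 ± 0.16. glra1, the other glycine receptor subunit, averaged −4.45 ± 0.23, −3.64 ± 0.33 and −4.64 ± 0.29 at the 3 ages in BBC eyes (SD, n = 4 each) and was highest at 72 hpf.

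Of the 5 glutamate receptor genes, 3 rose from 60 to 84 hpf, beside 34.5% of all probes. grm6b (probe A_15_P172661) had levels of −2.95, −3.18, −2.57 and −2.72 in BBC eyes at 60 hpf, of −1.67, −1.14, −0.99 and −1.86 at 72 hpf, and of 0.15, −0.10, 0.16 and −0.57 at 84 hpf. It rose at each step, and the log2 difference between 84 and 60 hpf was 2.77 ± 0.20 (SE, adjusted p = 3.6e-10). In MBZ eyes its levels were −2.46, −2.67, −2.67 and −2.49 at 60 hpf, −1.36, −1.51, −1.32 and −1.48 at 72 hpf, and −0.93, −0.44, −0.24 and −0.20 at 84 hpf. Its log2 difference was 2.12 ± 0.20 in MBZ eyes over the same ages, and the MBZ effect at 36 h minus that at 12 h was −0.64 ± 0.28 (SE, adjusted p = 0.53). The bipolar markers on the array rose with it, 7 of 7 in BBC eyes, with a summed level of 55.8 to 61.6 at 84 hpf, against 22.8 to 29.7 at 60 hpf, and their part in the change of grm6b was not tested. The 7 include nyx, which was not well above background in any BBC sample at 60 hpf. nyx was tested only because it was well above background at later ages. grin1a and the AMPA receptor subunit gria2b also rose, and their values are given with MBZ. gria2a, the paralog of gria2b, differed by −0.06 ± 0.10 between 84 and 60 hpf and did not pass the test, and gria4a differed by 0.80 ± 0.63, with 4 of 4 arrays above background at 84 hpf and 2 of 4 at 60 hpf.

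Of the 5 adhesion and scaffold genes, 4 rose from 60 to 84 hpf, beside 34.5% of all probes. dlg2, a scaffold of the postsynaptic density (probe A_15_P205126), had levels of −1.20, −1.21, −1.51 and −1.49 in BBC eyes at 60 hpf, of 1.0, 1.01, 1.39 and 0.73 at 72 hpf, and of 0.31, 0.23, 0.22 and −0.09 at 84 hpf. It was highest at 72 hpf, and the groups did not overlap, but its fall from 72 to 84 hpf depended on the scaling. The log2 difference of this step was −0.87 with the main scaling and −0.35 ± 0.25 with normexp (SE, limma adjusted p = 0.236). In MBZ eyes dlg2 had levels of −1.42, −1.86, −1.12 and −2.02 at 60 hpf, of 0.89, 0.80, 1.06 and 0.59 at 72 hpf, and of −0.52, −0.07, −0.37 and 0.17 at 84 hpf. homer1b, which links glutamate receptors to the scaffold, rose by 0.74 ± 0.12 from 60 to 84 hpf, dlg1a by 0.65 ± 0.15, and nrxn1a, a presynaptic adhesion molecule, by 0.30 ± 0.13 (SE). The call of dlg1a was lost with normexp (limma adjusted p = 0.665). That of nrxn1a was lost with normexp (adjusted p = 0.256) and with slide as a random block (adjusted p = 0.0745). The other probe of nrxn1a (A_15_P166701) changed more than the brightest and was highest at 72 hpf. It averaged −1.75 ± 0.24, 0.29 ± 0.29 and −0.74 ± 0.29 at 60, 72 and 84 hpf in BBC eyes (SD, n = 4 each). nrxn2a averaged 0.43 ± 0.10, 1.49 ± 0.17 and 0.68 ± 0.11 at 60, 72 and 84 hpf (SD, n = 4 each) and did not pass the test between 84 and 60 hpf. Its fall from 72 to 84 hpf was −0.81 with the main scaling and −0.25 ± 0.27 with normexp (SE, limma adjusted p = 0.417).

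**Figure D2:**
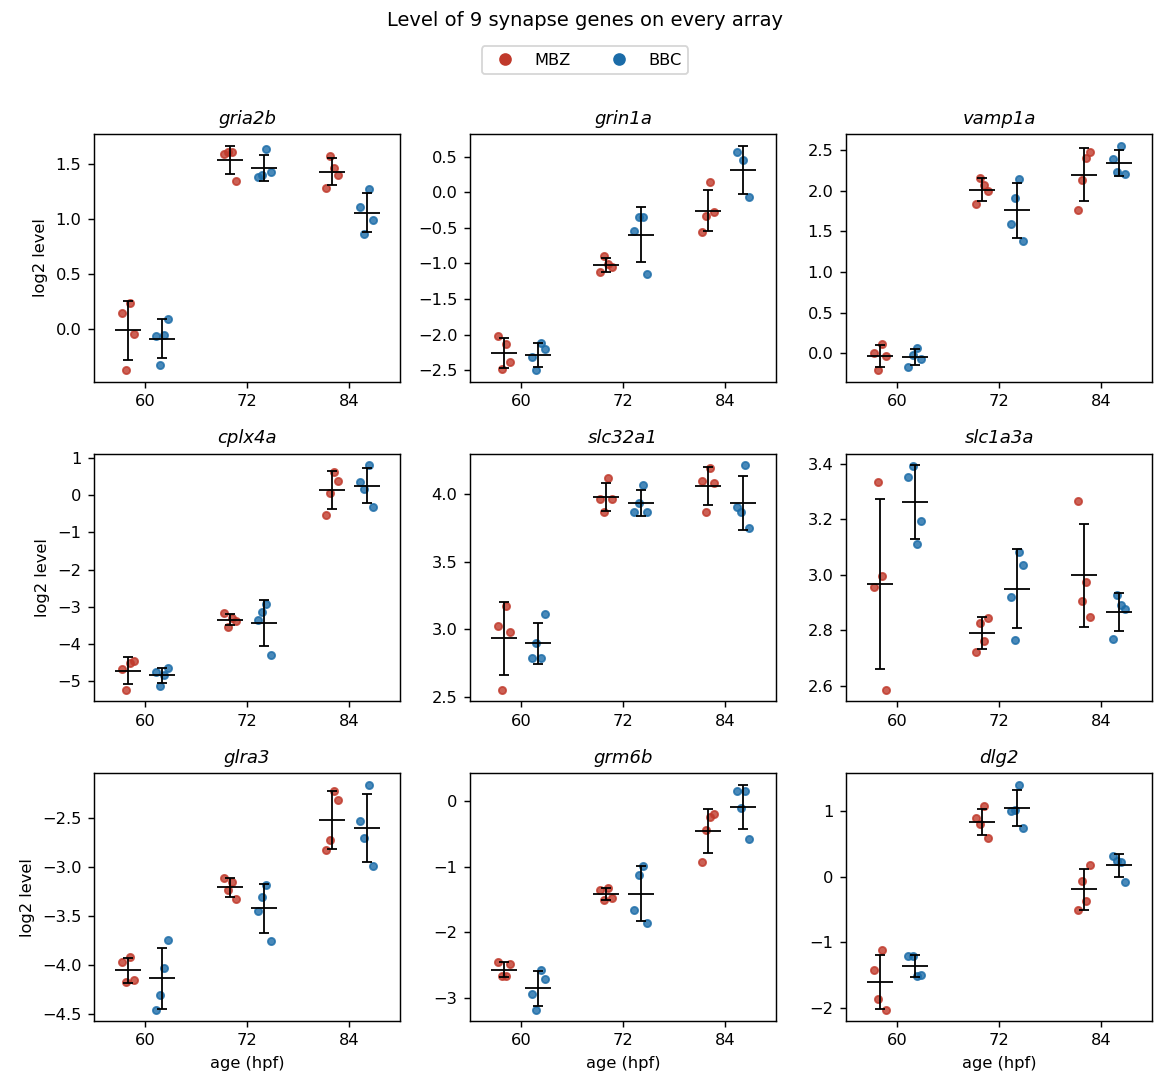
Log2 level of 9 synapse genes on every array (points) against age in hpf, MBZ (red) left of BBC (blue), with the mean (horizontal line) and SD (bars) of 4 arrays, or 3 for grin1a in BBC eyes at 84 hpf. Age separates the samples of 8 of the genes far more than the compound does, and slc1a3a spans the smallest range.

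Taken step by step in BBC eyes, 25 of the 32 genes rose and 1 fell between 60 and 72 hpf, against 43.8% of all probes higher and 29.7% lower. Between 72 and 84 hpf, 9 rose and 11 fell, against 23.2% of all probes higher and 34.0% lower. These comparisons share the arrays at 72 hpf. In MBZ eyes, 18 genes rose and 0 fell from 60 to 84 hpf (32.4% and 32.0% of all probes higher and lower), 25 rose and 0 fell from 60 to 72 hpf (42.9% and 29.9%), and 7 rose and 9 fell from 72 to 84 hpf (24.9% and 36.2%). Both steps depended on the scaling. From 60 to 72 hpf in BBC eyes, 23 genes rose and 0 fell with quantile normalization, and 16 rose and 1 fell with normexp. In MBZ eyes normexp gave 14 higher and 0 lower between these ages. With quantile normalization 11 genes rose and 9 fell from 72 to 84 hpf in BBC eyes, and with a normexp background correction 10 rose and 7 fell. In MBZ eyes quantile normalization gave 12 higher and 8 lower. For the later step in BBC eyes the median of all probes was −0.13 with the main scaling, 0.01 with quantile normalization and −0.64 with normexp. That of the 32 genes was 0.02, 0.15 and 0.46 in the same order. The shares of all probes called under the other scalings are not given here, so these counts have no background. The median of all probes between 72 and 60 hpf in BBC eyes was 0.20 with the main scaling, 0.02 with quantile normalization and 0.75 with normexp. That of the 32 genes was 0.95, 0.91 and 0.77 in the same order, so with normexp it lay close to that of all probes. Under normexp stxbp1a, cplx2a, gad1b and slc6a1b changed sign in this step, and syt11a, stxbp1a, slc6a1b, glra3 and gria2b in the next, whereas no called gene changed sign between 60 and 84 hpf under any of the 3 other scalings.

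Probes of the same gene showed how far these steps can be read. For 17 genes 2 or more probes were tested. In BBC eyes their log2 differences between 72 and 60 hpf spanned a median range of 0.95 within a gene, and 5 of 17 genes had probes of opposite sign. Between 84 and 60 hpf the median range was 0.48, and 2 of 17 genes, gad1b and slc6a9, had probes of opposite sign. snap25b is an example, since its brightest probe differed by 1.32 and its other probe (A_15_P202596) by −0.17 between 72 and 60 hpf, while from 60 to 84 hpf the brightest gave 1.96 and the other 1.65. Likewise the brightest probe of vamp2 differed by 0.99 and its other probe (A_15_P119559) by 2.46 in the first step, but by 1.09 and 1.26 from 60 to 84 hpf. The widest range from 60 to 84 hpf was that of grm6b, whose dimmer probe (A_15_P101377) differed by 0.40 against 2.77 for the brightest. The 3 probes of slc6a9 gave log2 differences between 72 and 60 hpf of 1.48, 2.08 and 1.17. The dimmer probe of slc17a6b was above background on 12 of 24 arrays. In BBC eyes these were 4 of 4 arrays at 72 hpf, where it averaged −3.95 ± 0.24 (SD), but 0 of 4 at 60 hpf and 2 of 4 at 84 hpf. The levels of slc17a6b at 60 and 84 hpf therefore rest on the brightest probe.

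**Figure D3:**
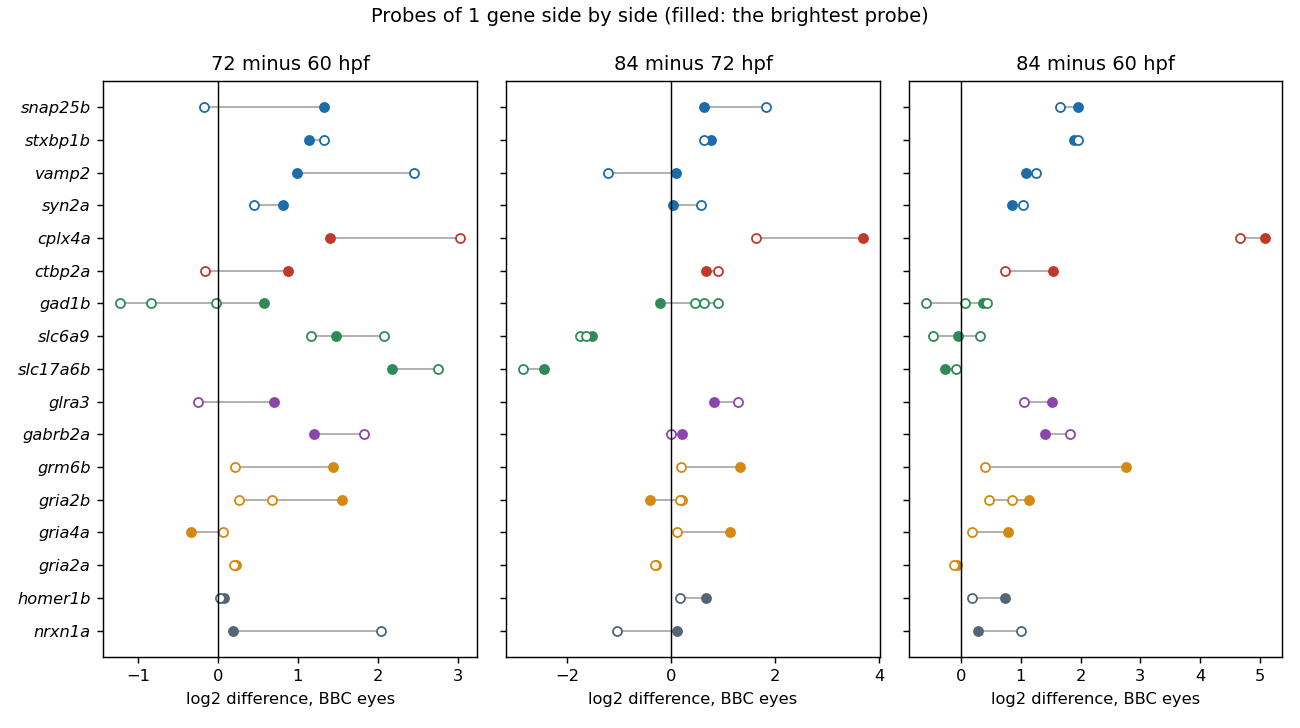
Log2 difference in BBC eyes for each tested probe of the 17 genes with 2 or more probes (rows, coloured by role), in 3 panels for 72 minus 60, 84 minus 72 and 84 minus 60 hpf, the brightest probe filled and the others open. Grey lines join probes of 1 gene, and their median length is 0.95 in the left panel and 0.48 in the right.

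Few of these genes were called between MBZ and BBC, as was so for all probes. At 12 h, 0 of the 32 genes passed the test at an adjusted p under 0.20 (limma), and 1 had an unadjusted p under 0.05. Over all probes 0.295% were called higher and 0.0254% lower, and 1587 of 31507 had an unadjusted p under 0.05. At 24 h, 0 of 32 passed, with 1 at an unadjusted p under 0.05, and 0.289% of all probes were called higher and 0.0317% lower, with 1458 of 31507 at an unadjusted p under 0.05. At 36 h, 1 gene was called higher and 1 lower, which is 6.25% of the 32 and close to the background of 3.17% of all probes higher and 2.44% lower. An unadjusted p under 0.05 was seen at 36 h for 3 of the 32 genes, beside 4199 of 31506 probes. The median log2 difference of the 32 genes was 0.04 at 12 h, 0.00 at 24 h and 0.03 at 36 h, and that of all probes was 0.01, −0.01 and −0.01. These counts are by the brightest probe of a gene. A dimmer probe of gad1b (A_15_P131666) also passed the threshold at 36 h, with a log2 difference of 0.46 ± 0.14 (SE, adjusted p = 0.114), while the brightest differed by 0.11 ± 0.15. Left out of the counts is ctbp2l (probe A_15_P139641), although the study lists it among probes changed by MBZ. From the shortest to the longest exposure, its MBZ means were −5.06 ± 0.74, −5.22 ± 0.16 and −4.33 ± 0.48. Its BBC means were −5.60 ± 0.24, −4.98 ± 0.27 and −4.16 ± 0.49 in the same order (SD, n = 4 each). MBZ and BBC samples of ctbp2l overlapped at every exposure time.

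The intervals show which differences the values of a single gene allow, without adjustment for the number of probes tested. For the 28 genes with a standard error under 0.2, the 95% intervals of the difference between MBZ and BBC stayed within −0.64 and 0.69 on the log2 scale at 12 h, within −0.80 and 0.58 at 24 h, and within −0.98 and 0.63 at 36 h. A gene that did not pass the test may still differ by as much as its interval allows. The interval was widest for gria4a, from −2.01 to 0.62 at 12 h. Without gria4a, the intervals of the 31 other genes lay within −0.98 and 1.85 at 36 h. cplx4a, which changed most with age, differed by 0.12 ± 0.28, 0.09 ± 0.28 and −0.12 ± 0.28 between MBZ and BBC at 12, 24 and 36 h (SE).

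**Figure D4:**
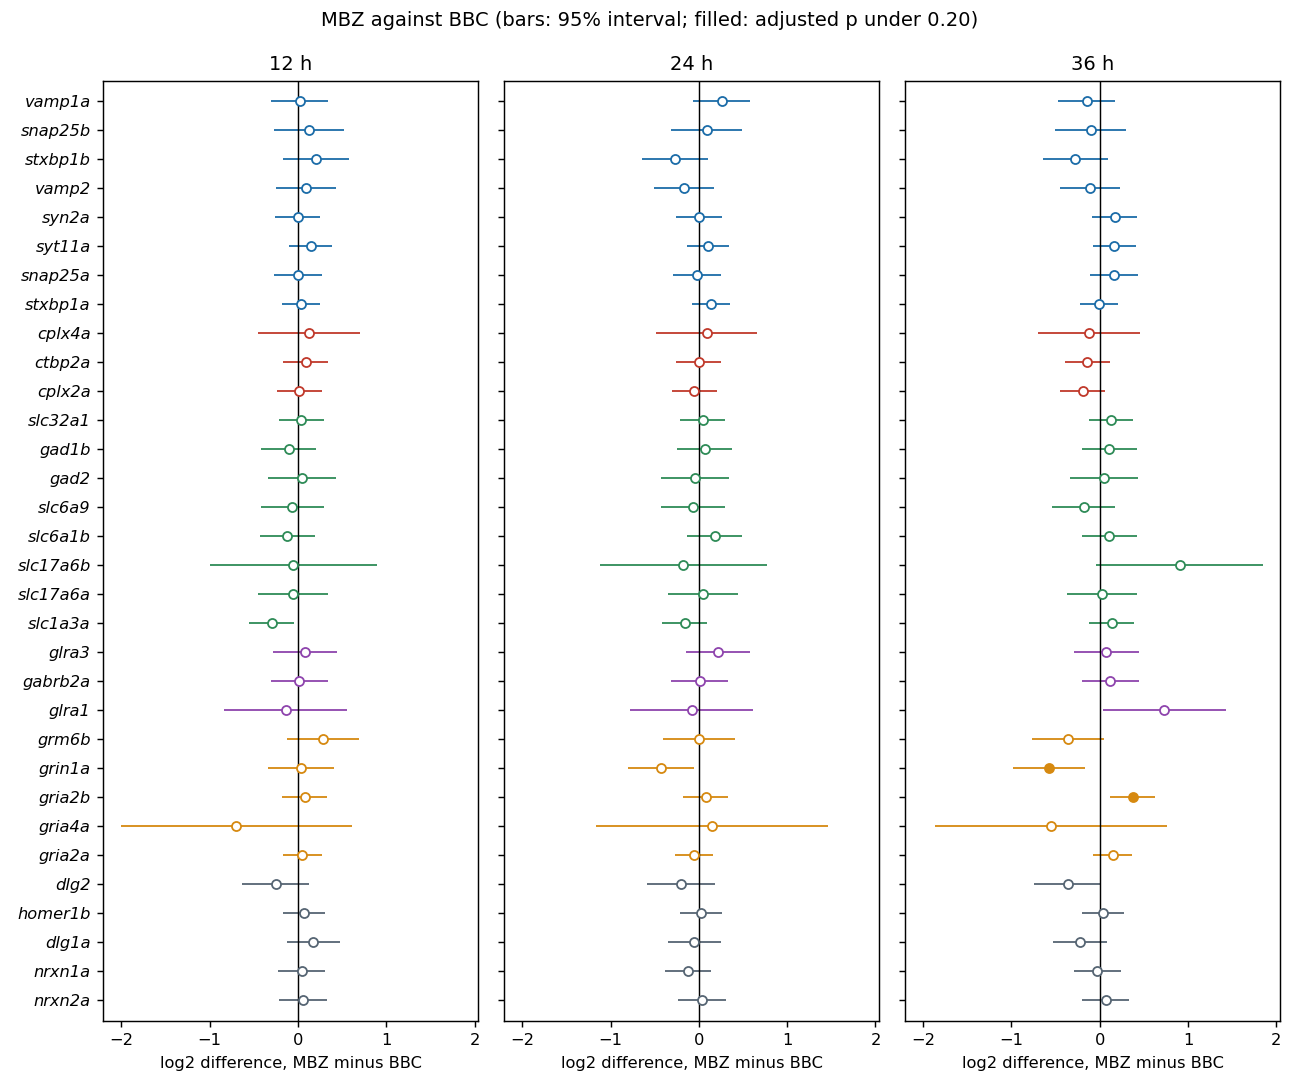
Log2 difference between MBZ and BBC eyes (MBZ minus BBC) for the 32 tested genes (rows, coloured by role) at 12, 24 and 36 h, with 95% intervals and genes at an adjusted p under 0.20 filled. Filled points occur only at 36 h, for gria2b at 0.37 and grin1a at −0.57.

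The genes called at 36 h were both glutamate receptor subunits and moved in opposite directions. gria2b, the AMPA receptor subunit that in mammals makes the channel impermeable to calcium (probe A_15_P120556), had levels of 1.28, 1.57, 1.47 and 1.40 in MBZ eyes, against 1.11, 0.86, 1.27 and 0.98 in BBC eyes at 84 hpf. Every MBZ sample was above every BBC sample, and the log2 difference was 0.37 ± 0.12 (SE, 1.29-fold, limma adjusted p = 0.16, two-sided exact permutation p = 0.0286, the smallest that 4 against 4 arrays can give). The other probes of gria2b gave 0.26 and 0.22, and their samples overlapped. At 24 h gria2b had levels of 1.59, 1.60, 1.61 and 1.34 in MBZ eyes, against 1.38, 1.40, 1.63 and 1.43 in BBC eyes, and at 12 h levels of 0.14, −0.38, 0.23 and −0.05 in MBZ eyes, against −0.06, −0.33, −0.06 and 0.09 in BBC eyes, and in each case the groups overlapped. With age gria2b rose by 1.44 ± 0.12 in MBZ eyes and by 1.15 ± 0.12 in BBC eyes from 60 to 84 hpf.

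grin1a (probe A_15_P154136) had levels of −0.56, −0.33, 0.14 and −0.28 in MBZ eyes at 36 h, against 0.57, 0.45 and −0.07 in BBC eyes, where the spot of replicate 3 was marked uneven and left out. The groups overlapped, and the log2 difference was −0.57 ± 0.19 (SE, n = 4 and 3, limma adjusted p = 0.168, two-sided exact permutation p = 0.114). With the uneven spot kept, an alternative chosen after seeing the data, it was −0.49 and the call was lost (adjusted p = 0.203). At 24 h grin1a had levels of −1.12, −0.90, −1.01 and −1.04 in MBZ eyes, against −0.54, −0.34, −0.34 and −1.15 in BBC eyes, with a difference of −0.43 ± 0.18 (adjusted p = 1.0), and at 12 h it had levels of −2.02, −2.48, −2.14 and −2.38 in MBZ eyes, against −2.32, −2.50, −2.12 and −2.2 in BBC eyes. From 60 to 84 hpf grin1a rose by 2.0 ± 0.18 in MBZ eyes and by 2.60 ± 0.19 in BBC eyes.

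The calls of gria2b and grin1a did not hold with every sample left out, although the direction did. For gria2b the log2 difference was 0.32 without MBZ replicate 2 at 36 h (adjusted p = 0.297), 0.36 without MBZ replicate 3 (0.338), 0.39 without BBC replicate 1 (0.242), 0.31 without BBC replicate 2 (0.373) and 0.35 without BBC replicate 4 (0.30). For grin1a it was −0.47 without MBZ replicate 1 (adjusted p = 0.294), −0.55 without MBZ replicate 2 (0.258), −0.45 without BBC replicate 1 (0.452) and −0.51 without BBC replicate 2 (0.39). Each call was lost as well with a normexp background correction, without the filter on dim probes, and with only the 8 arrays of 36 h in the fit. Within the slides of the 36 h arrays the difference was 0.44 and 0.30 for gria2b, and −0.95 and 0.00 for grin1a.

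Some markers of other tissues and cell types differed between MBZ and BBC eyes at 36 h, where 3.17% of all probes were higher and 2.44% lower. Of the bipolar markers 1 of 7 was higher, and of the pigment markers 1 of 11. Of the amacrine and horizontal cell markers 1 of 12 was lower, and of the progenitor markers 1 of 19. Of the 17 photoreceptor and 16 muscle markers tested, 0 were called. Among 18 tested lens markers 8 were lower and 0 higher, with a summed level of 521.4 to 700.1 in MBZ eyes, against 843.1 to 1144 in BBC eyes, and 5 of 14 ganglion cell markers were lower, with a summed level of 67.3 to 87.4 in MBZ eyes, against 77.7 to 92.7 in BBC eyes. Among 21 tested brain and pituitary markers 3 were higher, with a summed level of 21.4 to 30.6 in MBZ eyes, against 20.2 to 23.5 in BBC eyes. Among 13 tested macrophage and microglia markers 4 were higher, with a summed level of 26.6 to 48.6 in MBZ eyes, against 21.3 to 29.7 in BBC eyes, and among 8 Müller glia markers 2 were higher, with a summed level of 209.3 to 273.1 in MBZ eyes, against 200.5 to 255.6 in BBC eyes. c1qa was below background on all arrays, no gene of the lens, ganglion cell, brain or Müller glia lists was, and their part in the differences of gria2b and grin1a was not tested.

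The largest differences that did not pass the test at 36 h belonged to slc17a6b and glra1, and rested on 1 sample. slc17a6b had levels of −5.07, −5.11, −2.16 and −5.13 in MBZ eyes, against −5.03, −4.96, −5.60 and −5.51 in BBC eyes, and glra1 had levels of −4.49, −4.60, −2.57 and −3.99 in MBZ eyes, against −4.33, −4.48, −4.88 and −4.90 in BBC eyes. MBZ replicate 3 was the highest for each gene. The dimmer probe of slc17a6b (A_15_P101509) averaged −6.75 ± 0.19 in MBZ eyes and −6.80 ± 0.82 in BBC eyes (SD), without the difference seen on the brightest. It was above background on 1 of 4 and 2 of 4 of these arrays. By the brightest probes, the values were as follows. The log2 difference was 0.91 ± 0.45 for slc17a6b and 0.73 ± 0.33 for glra1, and without MBZ replicate 3 it was 0.17 ± 0.24 and 0.29 ± 0.26 (SE).

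Whether the MBZ effect itself changed with exposure time was tested in the same fit. At 24 h minus 12 h, 0 of the 32 genes passed at an adjusted p under 0.20, beside 0.0% of all probes, and 0 had an unadjusted p under 0.05, beside 669 of 31507 probes. At 36 h minus 24 h, 0 passed, beside 0.0635% of all probes, and 0 had an unadjusted p under 0.05, beside 1748 of 31506 probes. At 36 h minus 12 h, 0 passed, beside 0.362% of all probes, and 3 had an unadjusted p under 0.05 (slc1a3a, grin1a and grm6b), beside 2647 of 31506 probes. The difference for gria2b between 36 h and 12 h was 0.30 ± 0.17 (SE, adjusted p = 0.67) and for grin1a −0.61 ± 0.26 (adjusted p = 0.537).

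A wider list of 217 synaptic genes, of which 83 had a probe and 80 were tested, held many genes that changed with age. In BBC eyes 46 of 80 were higher and 12 lower at 84 than at 60 hpf, with a median log2 difference of 0.50, beside 34.5% of all probes higher and 32.2% lower and a median of 0.03. The genes named for the highest fitted changes were gnb3b, a G protein beta subunit of cones and ON bipolar cells, gabra6a, a GABA-A receptor subunit, and nyx, a protein of the ON bipolar postsynaptic complex. gnb3b rose by 6.16 ± 0.32 (SE, log2). gabra6a and nyx have only a bound and are not ranked with it. They were not well above background in any sample at 60 hpf and were on all 4 arrays at 84 hpf, where they were at least 23.6-fold and 22.5-fold higher. This bound sets the mean of the bright group against the lowest signal well above background on each array of the dim group. gabra6a and nyx are counted among the 46, though they passed the filter on dim probes only through later ages. The largest falls were those of syt10 by 1.63 ± 0.32, nsfb, an ATPase that takes SNARE complexes apart, by 1.39 ± 0.11, and gad3 by 1.11 ± 0.20 on the log2 scale.

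With MBZ, 0 of the 80 were called at 12 h and 0 at 24 h, and 3 were higher and 2 lower at 36 h, beside 3.17% of all probes higher and 2.44% lower. The nicotinic acetylcholine receptor subunit chrnb3b was not well above background in any MBZ sample and was so in all 4 BBC samples, a difference of at least 4.53-fold lower. A probe was tested if all 4 arrays of any group were well above background. chrnb3b met this in BBC eyes at 84 hpf, where it was high, so filter and test share these values and no p-value is given for it. It is nevertheless 1 of the 2 genes counted as lower. In BBC eyes it was at least 3.21-fold higher at 84 than at 60 hpf, where no sample was above background. gad3, a glutamate decarboxylase, was higher by 0.70 ± 0.20, and synprb, a synaptoporin of the vesicle membrane, by 0.60 ± 0.20, while sncga, a synuclein that also stands in the list of ganglion cell markers, was lower, with a log2 difference of −0.51 ± 0.14 (SE).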

How the data were processed

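Pooled eyes were profiled on 24 single-colour arrays, grouped by the labelled compound and exposure time. From the authors' scans, the deposited scanner output (Feature Extraction 8.0 per the labels, 10.1.1.1 per the file headers) gives spot intensities, with gProcessedSignal corrected for background and not normalized between arrays. A second deposited table, of log2 values that the authors normalized, was used as an alternative. Its column medians lay between 7.06 and 7.07, and set against the log2 scanner signal above background its values had slopes of 0.903 to 1.03, while its background correction and centring are not given in the sources used here. No column belonged to other samples (0). Columns of the study's own comparisons were not used for values.

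Spots of a probe were averaged, and those marked uneven were left out, while no member's probe was saturated. Signals were divided by the 75th percentile of their array and put on the log2 scale. A probe was tested if all 4 arrays of any group showed it positive, significant and well above background (31507 of 43603), and names came from RefSeq (GRCz12tu) for 15163 probes. Differences were tested in R 4.3.3 with limma 3.58.1 (lmFit, eBayes) in a fit of all 24 arrays with 18 residual degrees of freedom, adjusted by Benjamini-Hochberg over all tested probes, and called at an adjusted p under 0.20 for MBZ (the FDR of the methods) and under 0.05 for ages. The rank product test of the methods was not run. Single values were also tested by two-sided exact permutation in scipy 1.17.1. The fit was tested on simulated data first. Precision is limited by the number of arrays, with a median standard error of 0.143 for an MBZ difference.

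The members and lists were chosen with earlier results of these data known. Every-array values were given for genes called with MBZ and, in each role, for the largest called rise and fall from 60 to 84 hpf in BBC eyes, and slc17a6b and glra1 were added after their values were seen. Of the wider list, up to 4 genes called per MBZ comparison and 3 rises and 3 falls with age were named. Alternatives were other normalizations, filters, gene means, slide and replicate blocks, thresholds, and leaving out each array. Deviations of samples with the same replicate number correlated at 24 h in every pair (0.154 to 0.433). The pairing entered only an alternative fit with a replicate block, and the 24 h values given above come from the fit without it. The correlations were 0.029 to 0.127 at 12 h and −0.022 to 0.368 at 36 h, where no pairing was assumed.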

Additional observations from a re-analysis of the deposited data

Results flagged for a closer look

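The level of gria2b in MBZ replicate 4 at 24 h was 1.34, apart from the other samples of its group at 1.59 to 1.61, a gap of 0.94 of the whole range of the group. Among the 53 groups of 4 samples of the 9 genes given in full this was the only such sample, and chance marks about 1 in 20 groups.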

How the results depend on the processing

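The counts of genes called were 0 for MBZ against BBC at 12 h and 24 h and for each change of the MBZ effect under every alternative run, including each array left out. At 36 h, where 2 genes were called, 2 remained with quantile normalization, with the authors' values, with slide as a fixed block and with a replicate block over all times, and dlg1a joined them (3) with a replicate block within time. The count was 1 with the 4 spot flags required on all 24 arrays, with gene means and with uneven spots kept, and 0 without the filter on dim probes, with normexp, with only the 8 arrays compared, at an adjusted p under 0.05 and with a minimum of 1.5-fold. Leaving out 1 array gave 0 to 3. The direction of gria2b at 36 h was the same in each of these fits, and that of grin1a in each fit that held it. The fit with the 4 spot flags required on all 24 arrays left grin1a out, because of its uneven spot. Among the age comparisons, normexp lowered the counts by over 1.5 times in 4, to 17 from 60 to 72 hpf and 11 from 60 to 84 hpf in BBC eyes, and to 14 from 60 to 72 hpf and 10 from 72 to 84 hpf in MBZ eyes. The shares of all probes called under normexp are not given here, and the cause of the lower counts was not tested. All other alternatives stayed within 1.5 times, and leaving out 1 array gave 24 to 27, 19 to 21 and 19 to 21 genes in BBC eyes and 24 to 26, 15 to 17 and 18 to 21 in MBZ eyes (72 against 60, 84 against 72 and 84 against 60 hpf). At 24 h, where the replicate numbers pair the samples, the replicate block within time gave 0 genes called, as did the fit without it, and the block changed no other call by over 1.5 times. Signal over background limits gria4a, gria3b and syt1b, and 12 of 24 arrays the dimmer probe of slc17a6b.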
